A study of Macaca mulatta with 102 samples.

Results

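NME2 and CMPK1, kinases that act in turn to make UTP, were each represented by 1 transcript among the 42701 Ensembl transcripts measured, so that 2 of the 42701 are described here. They were chosen by name, from the lactose synthesis genes for which the study shows a transcript identifier. The genes shown there all differed between milk fat and biopsies in these samples, so that comparison is given for the members as a description. By the study's account both members also differed between milk fat and milk cells, so the tests of that comparison are no independent evidence. NME2 is ENSMMUT00000041822 (rheMac2, chromosome 16, 35402045 to 35407009) and CMPK1 is ENSMMUT00000024433 (rheMac2, chromosome 1, 50153990 to 50198871). The deposited table gives the extent of each transcript but not its exons.

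RNA was sequenced from 6 lactating rhesus macaques, called M1 to M6, with 3 technical runs for each of 34 samples. There were 6 mammary biopsies (Bx), 1 from each animal, taken on day 30 after birth in M3, M4 and M6 and on day 90 in M1, M2 and M5. There were 12 samples of milk cells, 1 from each animal on each day, and 10 samples of milk fat (4 from day 30, of M1, M2, M3 and M6, and 6 from day 90). Of the 6 remaining samples, all milk of day 90, 5 are labelled FatS10 (M1, M2, M4, M5 and M6, with the spelling FatsS10 for M4) and 1 is labelled Skim10m (M3). The study's results list cell-free milk of day 90 among the material sequenced, though its methods do not name it. Of the samples analysed here only these are left to be it, but the labels do not use that name. FatS10 was therefore kept under its label as a type of its own, and the Skim10m sample is given only as a value. The labels name no treatment or genotype. Each animal gave samples of several types, and differences within animals are therefore given throughout.

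UTP is made from UMP in 2 steps. CMPK1, the cytosolic UMP/CMP kinase, adds a phosphate to UMP and CMP to give UDP and CDP. NME2, a nucleoside diphosphate kinase, then passes a phosphate from ATP to UDP and to other nucleoside diphosphates. In the lactating mammary gland UGP2 joins UTP to glucose 1-phosphate to give UDP-glucose, and the lactose synthase of B4GALT1 and alpha-lactalbumin (LALBA) later uses UDP-galactose to make lactose. Both kinases also serve the synthesis of RNA, lipids and glycoproteins in other cells.

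Levels are in FPKM, fragments per kilobase of transcript scaled to the mapped reads of the library, which the authors estimated with Cufflinks. Each value below is the mean over the 3 technical runs of a sample. FPKM are per length, so the levels of the 2 transcripts may be set side by side. They do not give read numbers, and depth relative to the median sample, estimated from the spacing of low values, ran from 0.741 to 1.63 over the samples. The study reported lower RNA integrity in macaque milk fat than in milk cells or mammary tissue. It left out the day 30 milk RNA of some animals for poor quality. The part of RNA integrity in the differences below was not tested. LALBA, which marks secretory epithelium, had mean levels of 47146 FPKM in biopsies, 104131 in milk cells, 105479 in milk fat and 96221 in FatS10. RNA of this epithelium was thus present in every type, but immune and stromal markers were not analysed here because their names were not paired with identifiers. LALBA was lowest in biopsies, as were the members, but milk protein transcripts did not all share this order. In the study's lists of abundant transcripts, CSN3 and the more abundant CSN2 transcript were highest in biopsies. The less abundant CSN2 transcript and LGB2 were lowest there. The part of the epithelial share of the RNA in the differences below was not tested. In bulk samples of this kind, fewer cells of a type and less RNA per cell cannot be told apart.

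NME2, the second kinase of the pair, was high in all types, with mean levels that stood in the order biopsy, milk cells, FatS10, milk fat from lowest to highest. In the biopsies it was at 95.1 FPKM in M3, 106 in M2, 119 in M1, 198 in M5, 205 in M6 and 209 in M4. These FPKM fell into a low and a high trio that matched neither the day nor the first number of the sample names, the only batch-like label (2 for M1 and M2, 3 for M3 and M4 and the biopsy of M5, 4 for M6 and the milk of M5). The low trio had the 3 lowest scaling factors of the biopsies, 0.743 in M3, 0.754 in M1 and 0.819 in M2 against 0.976 to 1.19 in the others. Divided by these factors, as in the tests below, NME2 was at 128 in M3, 130 in M2, 158 in M1, 173 in M6, 176 in M4 and 203 in M5, in the same 2 trios but without the gap between them. In milk cells it ran from 194 to 472 FPKM with a median of 294 (mean 306 ± 82.3 SD, n = 12). In milk fat it ran from 390 to 744 FPKM with a median of 476 (mean 526 ± 124 SD, n = 10). All 10 milk fat samples were above all 6 biopsies in FPKM, and 10 of the 12 milk cell samples were. The share of all transcripts that separate in this way was not computed, here or for the separations given below. In milk fat against biopsies 55.0% of the transcripts tested were called, so separation need not be particular to NME2.

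In FatS10, NME2 was at 278 FPKM in M6, 302 in M4, 339 in M1, 344 in M5 and 407 in M2, and the Skim10m sample of M3 was at 329 FPKM. All 5 FatS10 values lay below all 6 milk fat values of the same day, which began at 417 FPKM, and above all biopsies. The place of FatS10 above milk cells depended on the day. Its mean of log2(scaled FPKM + 1) was 8.17, against 7.79 in milk cells of day 90 and 8.31 in those of day 30. Among the 42701 transcripts NME2 ranked between 180 and 293 from the top in the biopsies, between 135 and 191 in milk cells and between 110 and 155 in milk fat.

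**Figure D1:**
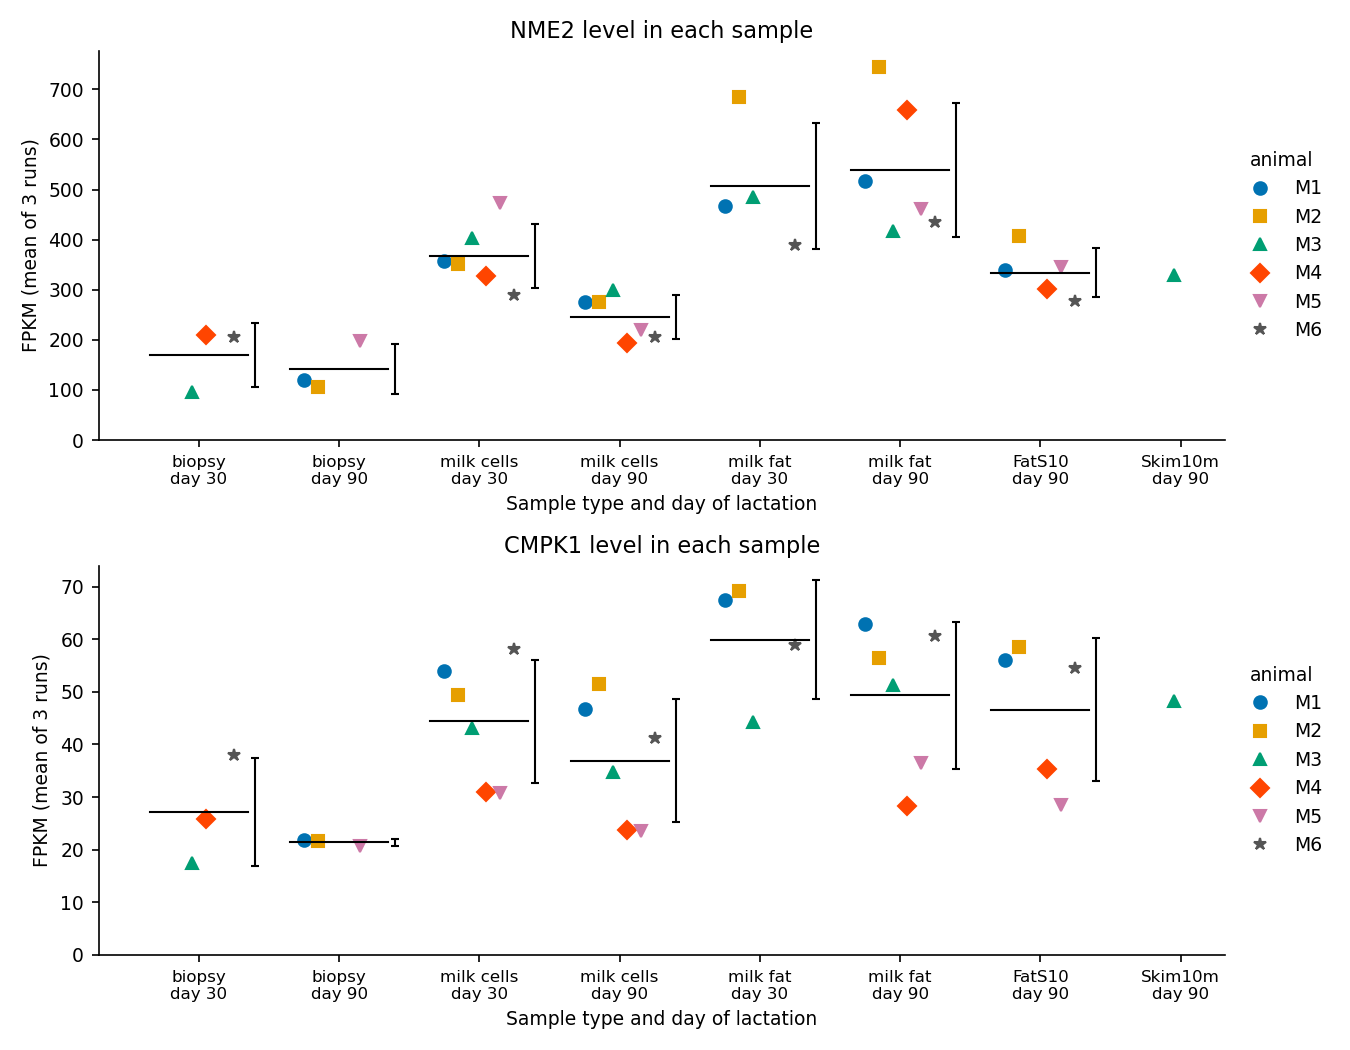
FPKM of NME2 (top) and CMPK1 (bottom) in each of the 34 samples, by sample type and day of lactation; each point is the mean of 3 technical runs, marked by animal, each horizontal line the mean of a group and each bar 1 SD. All 10 milk fat values of NME2 lie above its 6 biopsy values, while the CMPK1 values of milk fat and biopsies overlap, and M4 and M5 have the lowest CMPK1 of the day 30 and day 90 milk cells, the day 90 milk fat and FatS10.

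CMPK1, the first kinase of the pair, was below NME2 in every sample, and its means stood in the same order of types with more overlap. In the biopsies it was at 17.5 FPKM in M3, 20.7 in M5, 21.7 in M2, 21.8 in M1, 25.9 in M4 and 37.9 in M6. M6 stood highest, and the other 5 lay close together. In milk cells CMPK1 ran from 23.6 to 58.1 FPKM with a median of 42.1 (mean 40.6 ± 11.8 SD, n = 12). In milk fat it ran from 28.3 to 69.1 FPKM with a median of 57.7 (mean 53.6 ± 13.5 SD, n = 10). The types overlapped: 8 of the 10 milk fat samples and 7 of the 12 milk cell samples were above all biopsies.

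In FatS10, CMPK1 was at 28.6 FPKM in M5, 35.4 in M4, 54.5 in M6, 56.0 in M1 and 58.6 in M2, and at 48.3 FPKM in the Skim10m sample of M3. These values lay within the range of milk fat of the same day, 28.3 to 62.9 FPKM, but with the transcript that overlaps CMPK1 added (described below) 2 of the 5 lay below all milk fat of that day. CMPK1 ranked between 1105 and 1763 from the top in the biopsies, between 768 and 1704 in milk cells and between 822 and 1597 in milk fat.

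The first comparison asked whether RNA carried in milk fat differs from that of the gland itself. Both kinases were higher in milk fat than in biopsies, NME2 3.03-fold (95% confidence interval 2.32 to 3.96) and CMPK1 1.73-fold (1.33 to 2.24), and each was higher in 6 of 6 animals. Tests were made with limma on log2(scaled FPKM + 1), with an animal's days averaged (the milk fat of M4 and M5 was of day 90 only). A transcript is called here at a Benjamini-Hochberg adjusted p under 0.05 over all transcripts tested. Adding 1 makes fold changes slightly too small. Per animal, the fold of NME2 was 2.02 in M5, 2.21 in M6, 2.67 in M1, 3.79 in M3, 4.14 in M2 and 4.16 in M4. That of CMPK1 was smaller in all 6 animals, from 1.43 in M4 to 2.15 in M3. In this comparison 55.0% of 13413 transcripts were called, so that calls were common at large. The change of NME2 exceeded that of 96.9% of the transcripts tested and that of CMPK1 exceeded 82.2%.

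The comparison of milk cells with biopsies gave smaller differences. NME2 was 1.65-fold higher in milk cells (log2 difference 0.73, standard error 0.19, limma adjusted p = 0.00758) and higher in 6 of 6 animals, from 1.28-fold in M4 to 3.31-fold in M3. M3 stood apart from the other 5 animals, which did not exceed 1.76-fold. Its scaled biopsy value of 128 was the lowest but close to the 130 of M2, whose fold was 1.58. Its scaled milk cell values, 467 on day 30 and 390 on day 90, were the highest of the 6 animals on each day. CMPK1 was also higher in 6 of 6 animals, from 1.05-fold in M5 to 1.98-fold in M3, but its mean difference of 0.44 on the log2 scale (standard error 0.20) did not pass the threshold (limma adjusted p = 0.10). The interval of that difference in fold ran from 0.998 to 1.84. It passed with the animal as a block, at the same difference (limma adjusted p = 0.0387). Of 14172 transcripts tested, 43.0% were called without the block and 44.2% with it. This comparison and that of milk fat share the 6 biopsies, so their values are not independent of each other.

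Between the milk fractions, NME2 was 1.83-fold more abundant in milk fat than in milk cells (log2 difference 0.87, standard error 0.20, limma adjusted p = 0.00440). The fold was 1.14 in M3, 1.52 in M1, 1.54 in M5, 1.67 in M6, 2.62 in M2 and 3.25 in M4. In M4 and M5, milk fat of day 90 only was set against milk cells averaged over both days. On day 90 alone the milk fat values of NME2 (417 to 744 FPKM) did not overlap those of milk cells (194 to 299 FPKM). In a fit of that day alone 44.2% of 13228 transcripts were called, so this separation need not be particular to NME2. CMPK1 was 1.28-fold higher in milk fat, with all 6 animals between 1.09-fold and 1.44-fold. That difference, 0.35 on the log2 scale (standard error 0.22, interval in fold 0.912 to 1.78), did not pass without a term for animals (limma adjusted p = 0.219) and passed with it (standard error 0.08, limma adjusted p = 0.00849). The study reported the difference of CMPK1 as significant by its own test on gene counts, which had no animal term. The main fit here did not call it, but it used 1 transcript and averages over days, so the 2 results are not like for like. With the overlapping transcript added, CMPK1 passed in this comparison, as given below. Of 13521 transcripts, 43.7% were called without the block and 56.2% with it.

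FatS10 was compared with the day 90 milk of each kind and with the biopsies. NME2 was lower in FatS10 than in milk fat, by 0.83 on the log2 scale (standard error 0.17, 0.562-fold, limma adjusted p = 0.0115), and lower in 5 of 5 animals. The fold was smallest in M4, at 0.35, and nearest to 1 in M5, at 0.79. CMPK1 was lower in the same 5 animals but by less, between 0.82-fold and 0.95-fold, and the difference did not pass (limma adjusted p = 0.449, interval in fold 0.601 to 1.19). In this comparison 24.4% of 12759 transcripts were called. With the Skim10m sample counted as FatS10, NME2 still passed (limma adjusted p = 0.00585) and CMPK1 did not (limma adjusted p = 0.522).

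Against milk cells of day 90, FatS10 had a log2 difference of 0.38 in NME2 and of 0.27 in CMPK1, and both were higher in 5 of 5 animals. Neither passed without the block (limma adjusted p = 0.386 and 0.617), where only 0.713% of 13456 transcripts were called. With the animal as a block NME2 was 1.46-fold higher (limma adjusted p = 0.0162) and CMPK1 1.29-fold higher (limma adjusted p = 0.0159), in 5 animals, and 26.0% of transcripts were called. Against biopsies, NME2 was 1.79-fold higher (limma adjusted p = 0.00106) and CMPK1 1.51-fold higher (limma adjusted p = 0.0241), with 43.4% of 13781 transcripts called. The call of CMPK1 was lost without M1 (limma adjusted p = 0.0740) and without M2 (limma adjusted p = 0.0859). In the order of NME2 levels, milk cells and FatS10 were thus the neighbours that did not differ beyond the spread over samples without a block. In the order of CMPK1 levels no neighbouring types did, and with the block those of biopsies and milk cells and of milk cells and FatS10 did.

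**Figure D2:**
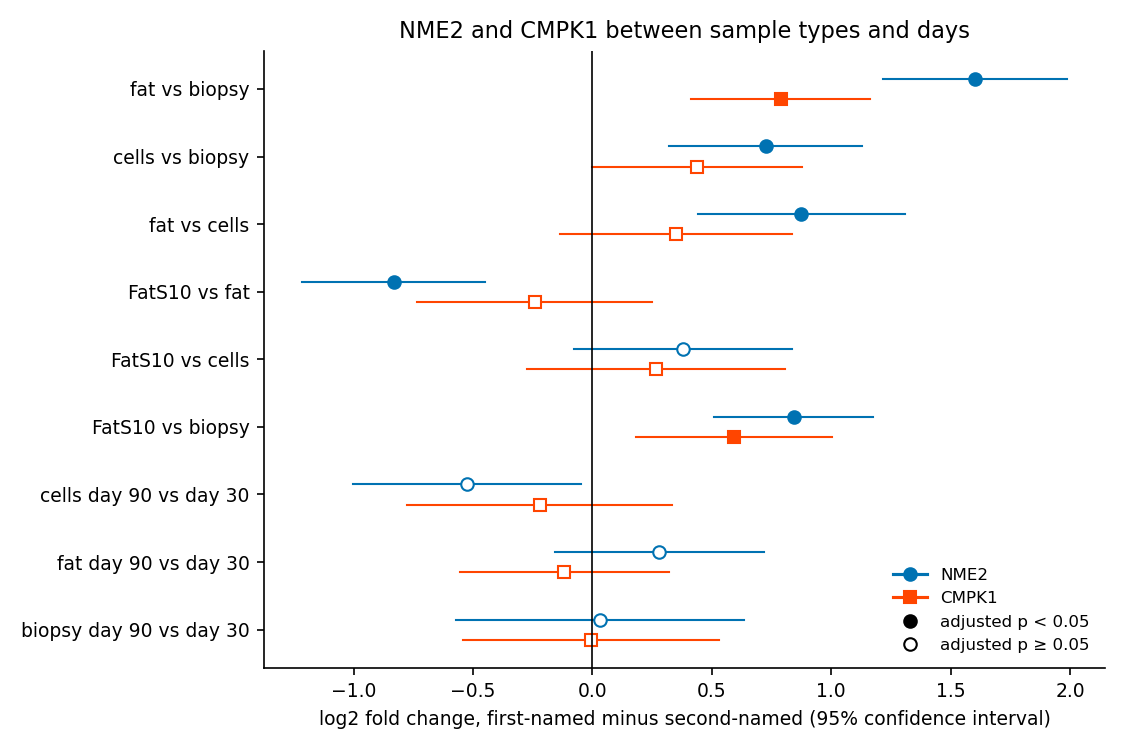
Log2 fold changes of NME2 (circles) and CMPK1 (squares) in the 9 comparisons, as the first-named group or day minus the second-named; lines are 95% confidence intervals from limma and filled symbols have an adjusted p under 0.05. The largest difference is that of NME2 between milk fat and biopsies, 1.60 on the log2 scale, and of the 9 intervals of CMPK1 those of milk fat and of FatS10 against biopsies clear 0.

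Days 30 and 90 were compared to ask whether expression changed over lactation. In milk cells NME2 was lower on day 90 in 6 of 6 animals. It went from 358 to 276 FPKM in M1, from 351 to 275 in M2, from 404 to 299 in M3, from 328 to 194 in M4, from 472 to 220 in M5 and from 289 to 207 in M6. After scaling, the day 90 level was 0.54-fold that of day 30 in M4 and 0.58-fold in M5, and between 0.72-fold and 0.83-fold in the other 4 animals. The mean difference, -0.52 on the log2 scale (standard error 0.22), did not pass over all transcripts (limma adjusted p = 0.140), where 5.15% of 13815 were called. It passed with the animal as a block (standard error 0.11, limma adjusted p = 0.0155), where 25.0% were called. The estimate was -0.52 with and without the block. It also passed without M3 (limma adjusted p = 0.0201), where 20.6% of 14098 transcripts were called. Calls at large thus depended on the animal left out, with 0 transcripts called without M1, M5 or M6.

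CMPK1 in milk cells was lower on day 90 in 5 of 6 animals, with a difference of -0.22 on the log2 scale (standard error 0.26, limma adjusted p = 0.596). Its largest falls were in M4 and M6, to 0.70-fold and 0.72-fold, and in M2 it was at 1.04-fold.

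In milk fat neither kinase passed between days, and 0 of 12609 transcripts were called by limma (661 had an unadjusted p under 0.05). NME2 was higher on day 90 in 3 of the 4 animals with both days (1.15-fold to 1.43-fold) and lower in M3 (0.89-fold). CMPK1 was higher on day 90 in all 4 animals, between 1.06-fold and 1.19-fold, although its mean over samples was lower on day 90 (log2 difference -0.12, standard error 0.20). M4 and M5, which had the lowest CMPK1, had milk fat of day 90 only. Over the 4 paired animals the difference was 0.14 (standard error 0.07, limma adjusted p = 0.505 with the block). In biopsies, taken from different animals on the 2 days, the differences were 0.03 for NME2 and -0.01 for CMPK1, and 0 of 13762 transcripts were called by limma (440 had an unadjusted p under 0.05).

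Whether the day mattered differently in milk fat and milk cells was tested as a difference between the 2 day effects, a test added after the values by day were seen. It was 0.80 for NME2 (standard error 0.31) and 0.10 for CMPK1 (standard error 0.35) on the log2 scale. Neither passed (limma adjusted p = 0.245 and 0.934), and 0% of 13521 transcripts were called. With a term for animals it was 0.82 for NME2 and 0.38 for CMPK1 (limma adjusted p = 0.0731 for both), and 9.60% were called.

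The ratio of NME2 to CMPK1 does not depend on how samples are scaled. It was 6.47 ± 1.90 in biopsies (SD, n = 6), 8.04 ± 2.98 in milk cells (n = 12), 10.7 ± 5.0 in milk fat (n = 10) and 7.73 ± 2.72 in FatS10 (n = 5), and 6.80 in the Skim10m sample. It ranged from 4.90 in the biopsy of M2 to 23.3 in the day 90 milk fat of M4, so that NME2 was above CMPK1 in every sample. No test was made of the ratio, which is given as a description.

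Within animals, the ratio was higher in milk fat than in biopsies in 6 of 6 animals, by 1.27-fold in M6 to 2.89-fold in M4. It also exceeded that of milk cells in milk fat in 6 of 6 animals, M4 and M5 with milk fat of day 90 only. The ratio was higher there by 1.05-fold in M3 to 2.49-fold in M4. It was lower in FatS10 than in milk fat of day 90 in 5 of 5 animals, by 0.95-fold in M5 to 0.37-fold in M4. The spread between animals was wide in all 3 comparisons, with M4 at one end of each. Between milk cells and biopsies the ratio was higher in 5 of 6 animals, and between days of milk cells it was lower on day 90 in 5 of 6.

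The ratio ordered the animals alike in several types. M6 had the lowest ratio in 5 of the 5 milk sets (milk cells and milk fat of either day, and FatS10), at 4.97, 5.01, 6.61, 7.18 and 5.10. M5 had the highest in day 30 milk cells (15.4), day 90 milk cells (9.34), FatS10 (12.1) and biopsies (9.59). In CMPK1 itself, M4 and M5 were the lowest 2 animals in each of the 4 milk sets that held both. They were not the lowest in biopsies, where M3 was. M4 and M5 do not share a first number in the names of their milk samples.

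**Figure D3:**
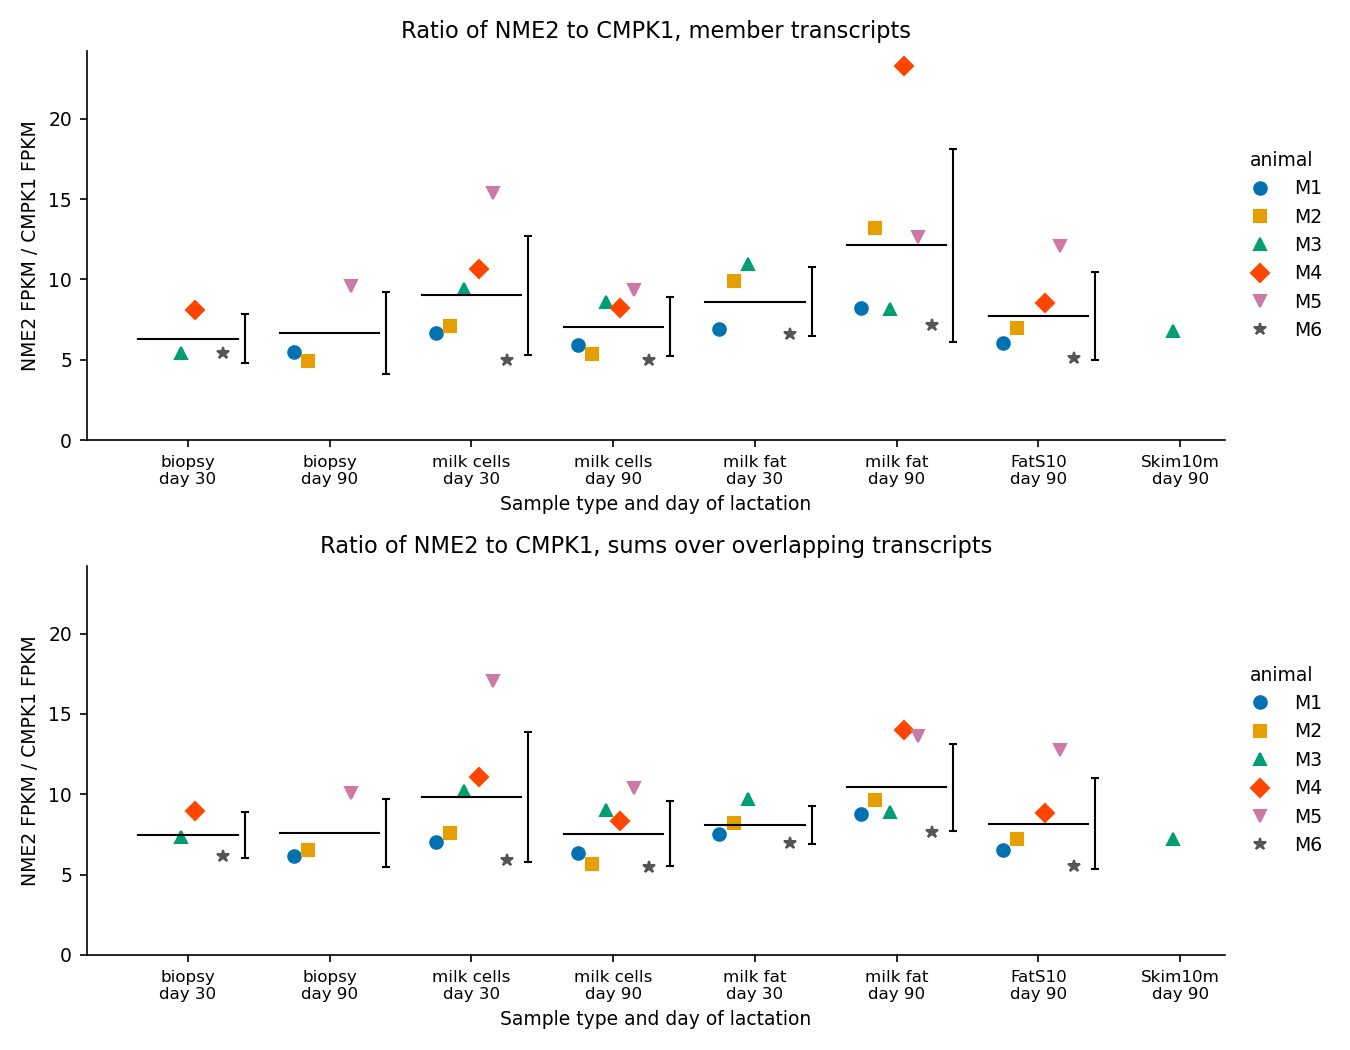
Ratio of NME2 to CMPK1 FPKM in each of the 34 samples, from the member transcripts (top) and from sums over all transcripts that overlap each member (bottom), with points marked by animal, lines for group means and bars of 1 SD. The highest point, 23.3 in the day 90 milk fat of M4, is at 14.02 when the overlapping transcripts are added.

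The level of each member depended on how Cufflinks divided reads between it and transcripts that overlap it. At the NME2 locus the table lists 3 such transcripts: ENSMMUT00000041820 (chromosome 16, 35402111 to 35407008), ENSMMUT00000002745 (35388524 to 35407009), and ENSMMUT00000041823 (35388570 to 35407009), which was listed at or next to 0 throughout. ENSMMUT00000002745 had mean levels of 5.51 FPKM in biopsies, 20.01 in milk cells and 27.3 in milk fat. In the RefSeq annotation of another macaque assembly (T2T-MMU8v2.0) the gene beside NME2 is NME1, which encodes a closely related nucleoside diphosphate kinase. Reads could therefore be shared within this locus, and the NME2 values are uncertain to that extent.

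ENSMMUT00000041820 had its highest mean in biopsies, with 18.8 FPKM there, 5.53 in milk cells and 5.82 in milk fat. It was not confined to them. It reached 22.4 FPKM in the milk cells of M6 on day 30 (67.3 in run 3) and 17.1 in the milk fat of M2 on day 90, and was at 0.00322 FPKM in the biopsy of M5. Its share changed between technical runs of a single library. In the biopsy of M1, NME2 was at 129, 90.8 and 137 FPKM in runs 1, 2 and 3, and ENSMMUT00000041820 was at 0.00421, 41.8 and 0.192 FPKM. In the biopsy of M2, NME2 was at 86.2, 87.8 and 145 FPKM, against 53.0, 50.8 and 0.0305 FPKM. One transcript gained what the other lost: the coefficient of variation over runs reached 31.6% for NME2 in the biopsies and 5.18% at most for the sum over the locus. Summed over the locus, NME2 remained 2.73-fold higher in milk fat than in biopsies and 1.52-fold higher in milk cells than in biopsies (limma adjusted p = 0.0117).

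At the CMPK1 locus a single transcript, ENSMMUT00000047201 (chromosome 1, 50154018 to 50198844), overlaps the member. It was below 0.01 FPKM in all 6 biopsies and reached 0.193 FPKM at most in milk cells. In milk fat it was at 18.97 FPKM in M2 on day 30 and 25.7 on day 90, at 19.7 in M4 on day 90, at 8.52 in M3 on day 30 and at 1.15 in M6 on day 30. In the other 5 milk fat samples it was below 0.01 FPKM. In the samples of M2, of M4 and of M3 on day 30 it was present in all 3 runs, from 5.99 to 32.0 FPKM, whereas in M6 it came from 1 run. The member held 58.9% of the sum at the locus in M4 and 68.7% in M2 on day 90.

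With this transcript added, CMPK1 in the day 90 milk fat of M4 was at 48.0 FPKM in place of 28.3, and that of M2 at 82.1 in place of 56.4. CMPK1 was then 1.48-fold above milk cells in milk fat (limma adjusted p = 0.0491) and so passed the threshold, and was 2.01-fold higher than in biopsies. In FatS10 against milk fat its difference went from -0.24 to -0.45 on the log2 scale, lower in 5 of 5 animals, and did not pass (limma adjusted p = 0.138). The excess of the ratio in milk fat over biopsies became smaller and more even between animals, 0.42 ± 0.13 on the log2 scale (SD, n = 6) against 0.79 ± 0.49 from the member transcripts. It remained above 0 in 6 of 6 animals. Milk fat against milk cells, the summed ratio was higher in 5 of 6 animals.

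**Figure D4:**
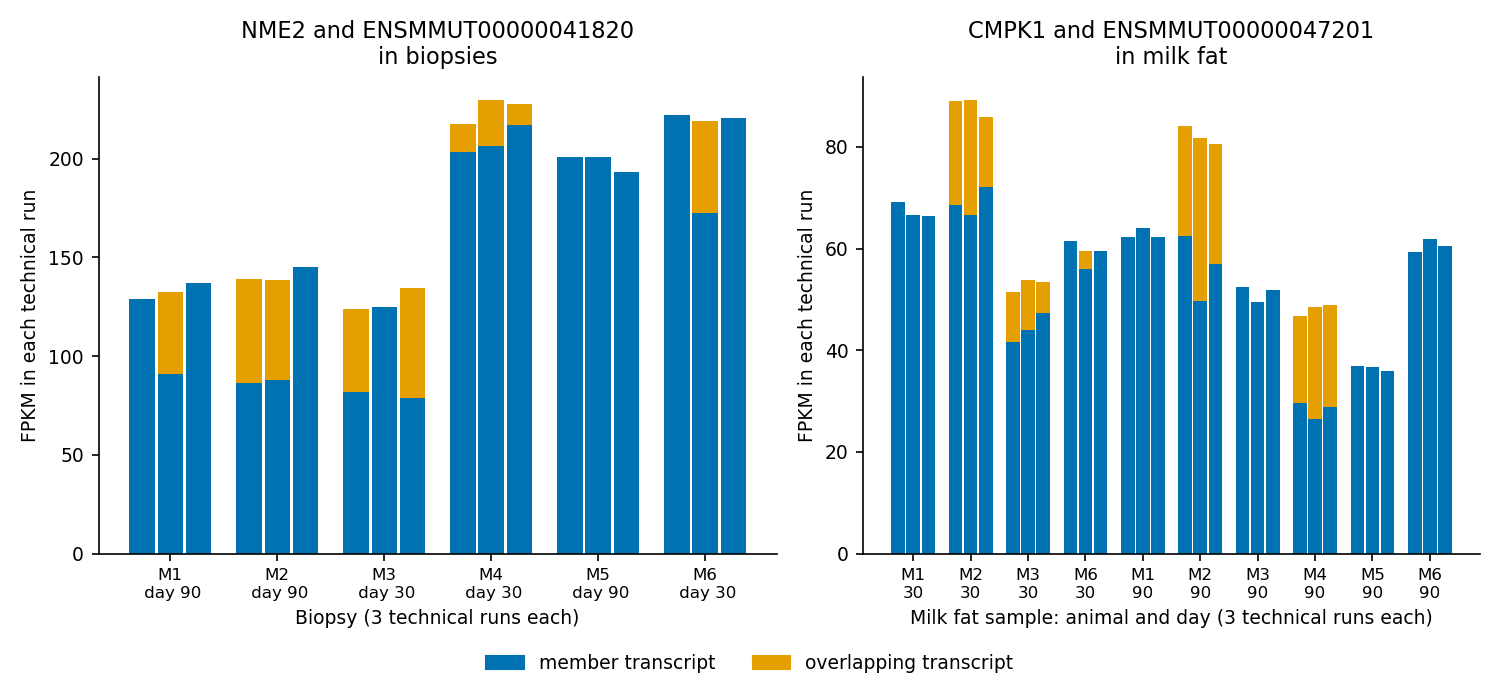
FPKM in each technical run, stacked, of NME2 and the overlapping ENSMMUT00000041820 in the 6 biopsies (left) and of CMPK1 and the overlapping ENSMMUT00000047201 in the 10 milk fat samples (right). In the biopsies the split at NME2 changes between runs while the bar height stays nearly level; in milk fat the added transcript of M2, M4 and M3 on day 30 is present in all 3 runs.

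The members were set among 8 lactose synthesis transcripts with known identifiers, themselves included. The study took a longer list of genes from earlier work and showed those that differed between milk fat and biopsies in these samples, so the counts are no independent evidence of a direction. Of the other 6, GALK1 phosphorylates galactose, GALT exchanges it with UDP-glucose, PGM1 makes glucose 1-phosphate, and UGP2, B4GALT1 and LALBA act as described above. By mean level in milk fat the order was LALBA, UGP2, NME2, B4GALT1, CMPK1, PGM1, GALK1 and GALT. NME2, at 526 FPKM, was thus the third highest and CMPK1, at 53.6 FPKM, the fifth. UGP2, which consumes UTP, was at 791 FPKM in milk fat and 132 FPKM in biopsies, so that its mean was above that of NME2 in the first and below it in the second. By sample, the ratio of UGP2 to NME2 went the other way in the biopsies of M2 (1.68) and M1 (1.01) and in the day 90 milk fat of M4 (0.444).

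In milk cells against biopsies, 2 of these other 6 transcripts rose, B4GALT1 fell and 3 did not pass. UGP2 was higher by 1.21 on the log2 scale (limma adjusted p = 0.00801) and LALBA by 0.88 (limma adjusted p = 0.0385). NME2, at 0.73, came after these 2 among the 8, and CMPK1, at 0.44, came next. The median over the 8 was 0.37, beside 0.02 over all transcripts tested, of which 21.5% were called higher and 21.4% lower.

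In FatS10 against milk fat, 4 of the other 6 fell, 0 rose and 2 did not pass. UGP2 fell by 1.28 on the log2 scale (limma adjusted p = 0.0398), GALT by 0.76 (limma adjusted p = 0.00834), GALK1 by 0.49 (limma adjusted p = 0.0152) and PGM1 by 0.28 (limma adjusted p = 0.0250). The fall of NME2, 0.83, came next to that of UGP2 in size among the 8. CMPK1, B4GALT1 and LALBA did not pass. The median over the 8 was -0.44, beside -0.02 over all transcripts tested, of which 14.1% were called lower. In FatS10 against biopsies 3 of the other 6 rose, 0 fell and 3 did not pass, beside 23.3% of all transcripts tested called higher. In FatS10 against milk cells and between the days of each type, 0 of the 8 passed with limma without the block. With the block both members passed in the first and NME2 passed between days of milk cells, as given above, and the other 6 were not fitted in that way.

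**Figure D5:**
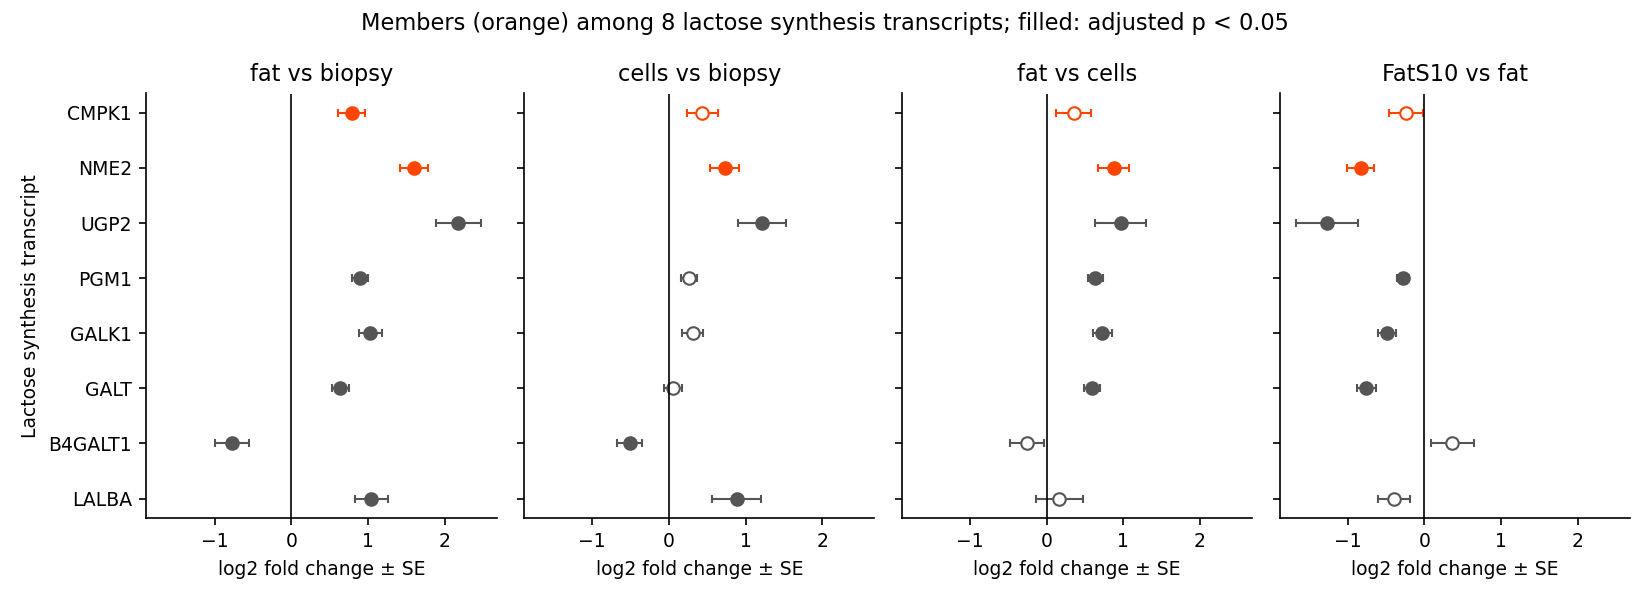
Log2 fold changes (points) with standard errors (bars) of the 8 lactose synthesis transcripts in 4 comparisons, with NME2 and CMPK1 in orange and filled points for an adjusted p under 0.05. NME2 lies next to UGP2 in size in milk fat against biopsies and in FatS10 against milk fat, while CMPK1 is open in the last 3 panels.

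Across the 34 samples the profile of NME2 was shared by many transcripts. By Pearson correlation of scaled log2 values among 13705 transcripts with a mean of at least 1 FPKM, 468 had a correlation with NME2 of at least 0.9, and the 3 highest were at 0.979, 0.978 and 0.977. The highest was ENSMMUT00000047725 (chromosome X, 152418676 to 152420757), at 70.6 FPKM in biopsies, 124 in milk cells and 215 in milk fat. For CMPK1 0 transcripts reached 0.9, and the 3 highest were at 0.868, 0.857 and 0.857. The highest was ENSMMUT00000011749 (chromosome 20, 71274135 to 71290254), at 17.3 FPKM in biopsies, 46.1 in milk cells and 77.8 in milk fat. No table at hand paired these identifiers with gene names.

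The members correlated with each other at 0.60, which placed CMPK1 at 2620 among the transcripts nearest to NME2. Of the other 6 lactose synthesis transcripts, GALK1 (0.88) and PGM1 (0.81) were nearest to NME2, and UGP2 (0.71) and GALK1 (0.59) to CMPK1. The median correlation over all transcripts was 0.02 with NME2 and 0.05 with CMPK1. These correlations rest on 34 samples that share animals and fall into types, and carry no test.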

How the data were processed

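Per the labels and the study's methods, RNA was poly(A)-selected and made into TruSeq libraries. The authors trimmed the reads, aligned them to the rheMac2 assembly using TopHat, and used Cufflinks with Ensembl 67 to give each of 42701 transcripts an FPKM in each technical run. The deposited FPKM were analysed, and the gene counts behind the authors' own tests were not. Of the deposited columns, 102 were used (3 runs of 34 samples) and 6, whose names match no sample described, were left out. Cufflinks estimates how reads divide between overlapping transcripts, so levels at shared loci carry that uncertainty. FPKM hold no read counts, so no counting interval or detection floor was computed.

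Runs were averaged as FPKM, and 0 pairs of columns were identical. Median-of-ratios factors came from 21792 transcripts above 0 in all samples. No minimum level was set for these, so transcripts listed far below 1 FPKM took part. Scaled values plus 1 were taken to log2 and fitted using limma 3.58.1 (R 4.3.3; trended prior variance; two-sided; Benjamini-Hochberg; threshold 0.05), keeping transcripts with a mean of at least 1 FPKM in the samples compared. Days were averaged within animals when types were compared, and FatS10 was set against milk of day 90. The fits were tried on simulated data of independent normal values with few transcripts changed. The simulation had no shared animals and no reads divided between transcripts, so it cannot speak to those features. Python 3.11.15, numpy 2.4.6, pandas 2.3.3 and matplotlib 3.10.9 served the other steps.

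Pairing rests on the animal named in the labels. Over transcripts, deviations from the type mean had a mean correlation within animals of 0.41 (cells with fat), 0.19 (cells with biopsies) and 0.16 (fat with biopsies). As in the study's tests, the main fits have no animal term. Alternatives were other scalings, pseudocount, filter and trend, 1 technical run, sums over overlapping transcripts, the animal as a block, 1 day only, the Skim10m sample added, and each animal left out.

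The members, the lactose synthesis list and the tests were chosen with earlier results of these data known. The rule for names took the members, the transcripts overlapping them, the lactose synthesis transcripts that the study identifies, and for each member the 3 best correlated, of which 1 is given by identifier. Besides the 8 given, 1 further transcript of that list is not reported here. No sequence is shown, as none was at hand.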

Additional observations from a re-analysis of the deposited data

Results flagged for a closer look

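One value stood apart from its group by Dixon's criterion, out of 30 sets of values looked at (both levels, their ratio, and the levels summed over overlapping transcripts, in each group of 4 to 6 samples and in the biopsies). The ratio of NME2 to CMPK1 in the day 90 milk fat of M4 was 23.3, and the next highest of the 6 animals, M2, was at 13.2, so that the gap took 0.626 of the group's range. About 1 in 20 such sets is marked in this way by chance if values are normally distributed, which was not tested. The criterion was applied to the ratio itself and not to its log2 values. Those were 4.54 in M4, 3.72 in M2 and, lowest of the group, 2.84 in M6. With overlapping transcripts added, the ratio of M4 was 14.02 beside 13.6 in M5 and was not marked.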

How the results depend on the processing

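Over the 18 results (9 comparisons of each member), 244 of 262 alternative values kept their direction and their side of the threshold, and for 9 of the results all did. With the animal as replicate block, which pairs samples by animal, 5 differences passed that did not before: CMPK1 in milk cells against biopsies (0.44, limma adjusted p = 0.0387), in milk fat against milk cells (0.35, 0.00849) and in FatS10 against milk cells (0.36, 0.0159), and NME2 in FatS10 against milk cells (0.54, 0.0162) and in day 90 against day 30 milk cells (-0.52, 0.0155). The block turned CMPK1 in day 90 against day 30 milk fat to 0.14 and changed no other call. In FPKM as deposited CMPK1 passed in milk cells against biopsies (0.70, 0.0235), and with overlapping transcripts summed it passed in milk fat against milk cells (0.57, 0.0491). Scaling to the 75th percentile lost CMPK1 in FatS10 against biopsies (0.51, 0.0619). With 1 animal left out, that difference ran from 0.54 to 0.67, that of NME2 between days of milk cells from -0.58 to -0.45, and those between days of biopsies from -0.14 to 0.18 for NME2 and from -0.11 to 0.15 for CMPK1. NME2 between days of biopsies was also -0.23 in FPKM as deposited and -0.0027 summed over the locus. Without scaling the median of all transcripts moved to 0.23 for milk fat, 0.24 for milk cells and 0.30 for FatS10 against biopsies, to 0.11 for FatS10 against milk fat and against milk cells, and to -0.20 and -0.14 between days of biopsies and of milk fat. Transcripts called in FatS10 against milk cells were 96, 3493 with the block, 23 in FPKM as deposited, 158 with a pseudocount of 0.1, 40 without a filter, 35 from the first run, 154 with the Skim10m sample, and 7 (without M4) to 488 (without M3). Between days of milk cells they were 711, 3460 with the block, 0 in FPKM as deposited and without a filter, 112 from the first run, and 0 (without M1, M5 or M6) to 2900 (without M3). In FatS10 against milk fat they were 3116, 5143 with the block, 1886 without a filter, 1936 from the first run, 714 without M1, 1224 without M6, 1247 without M4 and 1570 without M2. Between days of milk fat and of biopsies they were 0, and at most 2 and 12 (both without M3). Without a filter they were 11434 in milk fat and 9066 in FatS10 against biopsies, in place of 7372 and 5983. The cause of these shifts was not tested. With 3 to 6 animals a group and no read counts, differences smaller than the intervals given could not be told from 0.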
